A study of Mus musculus with 7 samples.

Results

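The set described here holds 111 pairs of restriction fragments, out of 86767 pairs assayed, whose contact reads lay above the predicted value in embryonic stem (ES) cells and below it in neural progenitor cells (NPCs). A pair entered the set when its reads divided by the authors' predicted reads were at least 2, with at least 10 reads, in both ES libraries, and under 1 in both NPC libraries. The members were therefore chosen on the values of all 4 libraries. The difference between the cell types in these pairs is a description and carries no test in its favour.

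Contacts came from 5C (the carbon-copy form of chromosome conformation capture), with 2 libraries of NPCs and 2 of ES cells, around Olig1-Olig2, Sox2, Oct4, Nanog, Klf4 and Nestin and in a gene desert that served as negative control. The NPCs were derived from V6.5 ES cells through embryoid bodies (4 days without LIF), selection in ITSFn medium (5 to 7 days) and expansion with Fgf2 (2 to 4 days). The ES cells were the parental V6.5 line, which is male, of 129SvJae x C57BL/6 background, and was grown with LIF on inactivated feeder cells that were then removed over 2 to 3 passages on gelatin. All cells were fixed in 1% formaldehyde and their chromatin was cut with HindIII. No expression values were used, so the cell types rest on the labels. Whether the numbered libraries are separate cultures is not stated in the labels, and the p-values below may therefore reflect technical spread alone.

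In 5C, chromatin is cross-linked, cut and ligated, and ligated fragments are amplified with forward and reverse primers placed on alternating fragments and then sequenced. The number of reads of a forward and reverse pair rises with how often the fragments meet, and it falls steeply with their distance along the chromosome. It also depends on how well each primer and fragment works, which is why reads are set against a predicted value. Contacts that stand out over such a prediction are candidates for loops, in which distant sites such as an enhancer and a promoter are held together, often with CTCF and cohesin at the base. Oct4, Sox2, Nanog and Klf4 encode transcription factors of the pluripotent state. Sox2 is also active in neural progenitors, where Nestin encodes an intermediate filament protein, and Olig1 and Olig2 encode transcription factors of the oligodendrocyte and motor neuron lineages. Reads come from populations of cells, so that fewer cells with a contact and a rarer contact in each cell cannot be told apart.

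Total reads were 15899829 and 42673906 in NPC replicates 1 and 2, and 10742380 and 8236666 in ES replicates 1 and 2. A large part fell on 3 pairs, at 19.7% and 27.2% in NPCs and 30.3% and 53.3% in ES cells, and 0 of these pairs belonged to the set. Pairs with 0 reads made up 18.9% and 22.2% of the table in NPCs and 10.96% and 13.3% in ES cells. Over all pairs the median of reads over predicted was 0.858 and 0.846 in NPCs and 0.948 and 0.941 in ES cells. The deposited table gives distances but no chromosome coordinates. Positions are therefore kb from the first assayed fragment of a region, and the direction of the regions and the place of the genes in them are unknown here. FOR and REV name forward and reverse fragments with the authors' numbers.

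Most pairs high in ES cells were not below the prediction in NPCs. Of 35552 pairs with at least 10 reads in both ES libraries, called readable pairs below, 1881 or 5.29% reached the predicted value times 2 in both. Of these 1881 pairs, 111 lay under the prediction in both NPC libraries, which is 5.90% (exact 95% interval 4.88 to 7.06%, counting error only). Among all readable pairs 26.3% lay under it in both NPC libraries. Of the same 1881 pairs, a further 324 lay under it in exactly 1 NPC library, and 1446 pairs, or 76.9%, stayed at or above it in both. The share of members among all readable pairs was 0.312%. The mirror set, with the same limits and the cell types exchanged, held 464 of 36791 pairs readable in NPCs, or 1.26%. Another 792 pairs reached the limits of ratio and reads in all 4 libraries.

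Members had a median of 6 and 8 reads in NPC replicates 1 and 2 and of 36 and 23 reads in ES replicates 1 and 2. Other readable pairs of the same region and distance class had medians of 41 and 69 reads in NPCs and 36 and 25 reads in ES cells. Median ES reads of members were close to those of matched pairs, while median NPC reads were lower. The rule held NPC reads under their prediction, so the lower NPC reads were in part set by the selection. The median predicted reads of members were lower than those of matched pairs in every library. The median prediction was 19.7 and 44.2 reads in NPCs and 13.1 and 7.68 in ES cells, against 38.2 and 67.8 in NPCs and 32.3 and 21.996 in ES cells for the matched pairs. In 15 members the prediction was under 3 reads in at least 1 NPC library, and in 69 members it was at least 10 reads in both.

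**Figure D1:**
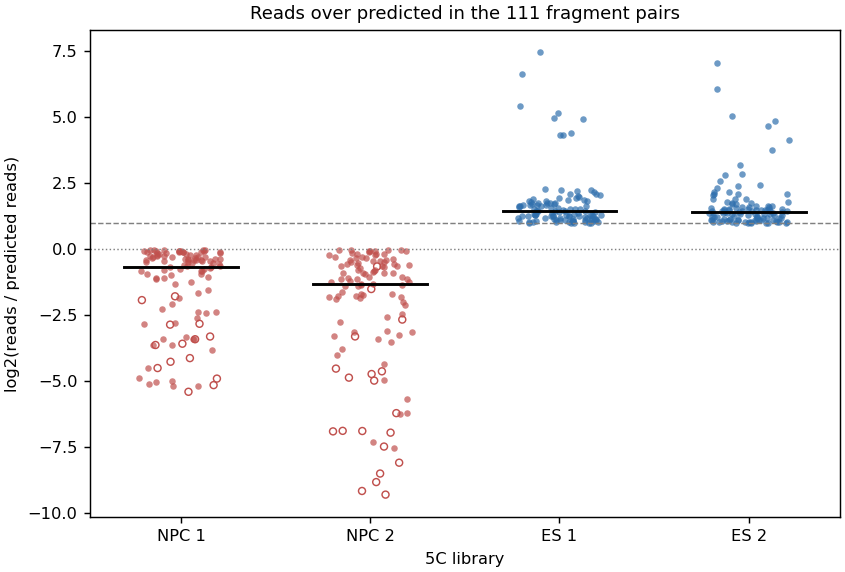
Reads over predicted reads (log2, vertical axis) of the 111 pairs in each 5C library, with 1 point per pair, black bars for medians, dashed and dotted lines at ratios of 2 and 1, and open circles for pairs with 0 reads, entered as 0.25 reads. The points sit below the dotted line in both NPC libraries and above the dashed line in both ES libraries because the rule placed them there; most ES points lie close to the dashed line, with a few far above it.

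Most members lay close to a limit of the rule. The lower of the ES ratios was under 2.5 in 66 members, at least 3 in 23, at least 4 in 11 and at least 10 in 6. The higher of the NPC ratios was at least 0.75 in 52 members, at most 0.5 in 33 and at most 0.25 in 19. NPC reads were 0 in both libraries in 6 members, and 1 to 3 in sum in 16. The NPC libraries often disagreed in depth below the limit: in 45 members exactly 1 of them was under 0.5. Just inside the NPC limit stood Olig1-Olig2 FOR319 and REV320, with ratios of 0.730 and 0.999 in NPCs and 2.01 and 2.28 in ES cells. Just outside it stood Klf4 FOR132 and REV012, with 1.00 and 0.544 in NPCs and 3.18 and 2.71 in ES cells. At the ES limit, Nanog FOR039 and REV118 was inside with a lower ES ratio of 2.00449, and Klf4 FOR082 and REV121 was outside with 1.99973. Within 0.1 of a limit there were 28 members at the NPC limit and 26 at the ES limit, and 27 and 34 pairs missed the set by as little.

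The Olig1-Olig2 region gave the most members, 34, ahead of Oct4 with 30, Sox2 with 16, Klf4 with 13, Nanog with 9 and Nestin with 9. The gene desert gave 0 of 417 readable pairs, for which 3 counts, the limit that a count of 0 allows, would be 0.719% and the upper end of the exact 95% interval is 0.881%. Regions differ in size and in the distances they hold, so each count was set against the count that the series-wide share of members per distance class gives. Olig1-Olig2 had 34 members against 23.3 and Nanog 9 against 5.74. Oct4 had 30 against 37.7 and Sox2 16 against 20.2, while Klf4 (13 against 13.4) and Nestin (9 against 9.83) were close to it. For the gene desert distance gave 0.797. The share of readable pairs was 0.446% in Olig1-Olig2 (exact 95% interval 0.309 to 0.623%), 0.376% in Nanog (0.172 to 0.712%), 0.319% in Oct4 (0.215 to 0.454%), 0.258% in Sox2 (0.148 to 0.419%), 0.233% in Klf4 (0.124 to 0.398%) and 0.229% in Nestin (0.105 to 0.435%). All of these intervals overlap, and members that share a fragment are not independent. The excess in Olig1-Olig2, 1.46 times the count from distance, was 1.04 to 1.17 times when any 1 library was left out of the rule, with 1.06 without ES replicate 1 and 1.04 without ES replicate 2.

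**Figure D2:**
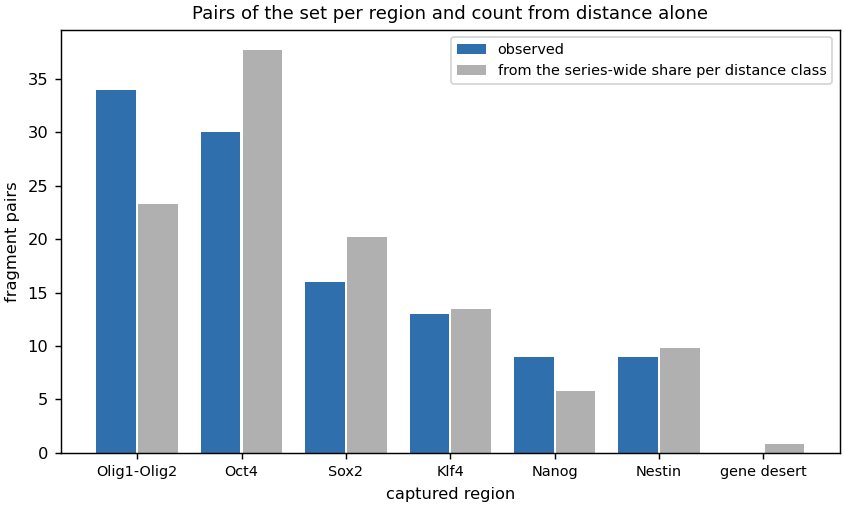
Number of pairs in the set per captured region (blue) and the number that the series-wide share of readable pairs per distance class gives for that region (grey). Olig1-Olig2 (34 against 23.3) and Nanog (9 against 5.74) lie above the count from distance, Oct4 (30 against 37.7) and Sox2 (16 against 20.2) below it, and the gene desert has 0.

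Members were long-range more often than readable pairs. Their median distance was 343 kb, with quartiles of 144 and 616 kb, against 178 kb, with quartiles of 71.1 and 356 kb, for readable pairs. The shortest member spanned 0.256 kb and the longest 1694 kb. Among readable pairs over 1000 kb apart, 7 of 667 were members (1.05%), and from 500 to 1000 kb 33 of 4342 were (0.760%, exact interval 0.524 to 1.07%). From 10 to 100 kb the share was 0.153% (15 of 9817, interval 0.0855 to 0.252%). Below 10 kb it was 0.457%, with 8 members of 1752 pairs (interval 0.197 to 0.898%). Each of these 8 members joined fragments with consecutive numbers. Each also failed the rule with the rebuilt expected value given below. At each read depth the share was higher at 250 kb or more than below it. With 10 to 19 reads in the lower ES library, 0.633% of readable pairs at 250 kb or more were members, against 0.172% of nearer pairs. With 20 to 49 reads the shares were 0.386% (exact interval 0.233 to 0.602%) and 0.195% (0.107 to 0.327%). With 50 reads or more they were 0.514% (0.247 to 0.943%) and 0.177% (0.103 to 0.282%). In both of these read classes the intervals overlap. The mirror set had a median of 377 kb, while the pairs above the limits in all 4 libraries had a median of 199 kb. The distance rested on the predicted value. With an expected value rebuilt from the reads (a smooth curve of distance with primer medians) the rule gave 118 pairs with a median of 175 kb. Of those, 48 were members, which is 43.2% of the 111 pairs and 40.7% of the 118.

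**Figure D3:**
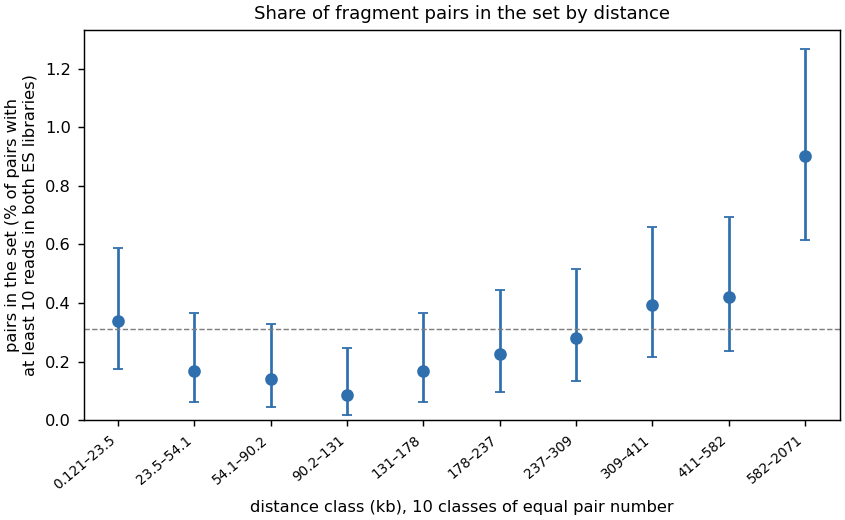
Share of readable pairs (at least 10 reads in both ES libraries) that belong to the set, in percent, in 10 distance classes of equal pair number, with exact 95% intervals that cover counting error only and a dashed line at the share over all classes, 0.312%. The lowest share is 0.0844% at 90.2 to 131 kb and the highest is 0.8999% at 582 to 2071 kb.

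The 6 members with both ES ratios of at least 10 stood apart from the rest. Oct4 FOR344 and REV196, 562 kb apart, had 2 and 5 reads in NPCs against 618 and 356 reads in ES cells, which is 0.344 and 0.462 times predicted in NPCs and 177 and 135 times predicted in ES cells. Oct4 FOR133 and REV288, 626 kb apart, had 32 and 6 reads in NPCs and 1870 and 932 in ES cells, or 0.491 and 0.0323 times predicted against 35.9 and 33.5. Both pairs were among the members with the most ES reads, far over the ES medians of 36 and 23 reads. Oct4 FOR360 and REV001, 1509.6 kb apart, had 17 and 0 reads in NPCs and 638 and 118 in ES cells, and REV001 is the first assayed fragment of that region. Klf4 FOR226 and REV131, 281 kb apart, had 31 and 138 reads in NPCs and 1655 and 739 in ES cells. The ES ratios of this Klf4 pair were 31.8 and 25.7. No NPC read was found for Klf4 FOR254 and REV025 (643 kb), against 41 and 74 reads in ES cells, at least 40.9-fold lower in NPCs when 3 reads are set per NPC library. Olig1-Olig2 FOR282 and REV141, 430.0 kb apart, had 13 and 82 reads in NPCs and 817 and 110 in ES cells. All 6 were lower in both NPC libraries than in both ES libraries after depth scaling, as were 42.6% of readable pairs, and the rule used the same contrast. With the rebuilt expected value 4 of the 6 also met the rule.

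Contacts around these 6 pairs were near or below the prediction in the median. The pairs 1 or 2 fragments away at both ends, sharing neither fragment, had median ratios of 0.775 and 0.614 in NPCs and 0.939 and 0.912 in ES cells (88 pairs). Around Oct4 FOR344 and REV196 the medians were 0.775 and 0.719 in NPCs and 1.17 and 1.03 in ES cells. Around Klf4 FOR254 and REV025 they were 0.835 and 0.417 in NPCs and 0.607 and 0.489 in ES cells. In these pairs the ES ratio was far above that of the surrounding fragment combinations, but only the pairs had been picked for high ES ratios. Around Oct4 FOR133 and REV288 the neighbours were themselves lower in NPCs, at 0.510 and 0.151 against 1.30 and 1.08 in ES cells.

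Part of the Olig1-Olig2 members formed a short-range stretch. It lay at 1017 to 1082 kb, near the end of the 1138 kb region, and was formed by fragment REV327 with 5 forward fragments. FOR331 and REV327, 10.0 kb apart, had 4 and 3 reads in NPCs and 80 and 50 in ES cells. FOR335 and REV327, 26.3 kb apart, had 26 and 13 reads in NPCs and 255 and 148 in ES cells. FOR341 and REV327 (52.3 kb) had 16 and 5 in NPCs and 250 and 84 in ES cells, FOR344 and REV327 (59.3 kb) 2 and 0 against 16 and 13, and FOR347 and REV327 (64.9 kb) 0 and 2 against 17 and 22. The 2 forward fragments between them missed the set through NPC libraries above the limit: FOR333 and REV327 had ratios of 1.32 and 2.55 in NPCs and 5.27 and 3.32 in ES cells, and FOR338 and REV327 had 1.73 and 0 in NPCs and 4.95 and 2.12 in ES cells. Beyond FOR347 the stretch ended, with FOR349 and REV327 at 0.915 and 0.636 in NPCs and 1.53 and 1.18 in ES cells. All 7 assayed forward fragments from FOR331 to FOR347 had ES ratios of at least 2 with REV327 in both libraries. FOR331 formed another member with REV336, 22.1 kb away, with 5 and 4 reads in NPCs and 67 and 22 in ES cells. Over the other 43 pairs between the fragments REV327 and FOR347 the median ratio was 1.48 and 0.982 in NPCs and 2.23 and 2.08 in ES cells. In 28 of these 43 pairs both NPC ratios lay under both ES ratios. That share was 20.6% over all pairs of the table, which were not matched on region or distance. The stretch was singled out after its values were seen. With the rebuilt expected value 2 of the 5 REV327 members stayed in the set.

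Short contacts of Olig1-Olig2 with many reads also entered the set. FOR319 and REV320, 1.33 kb apart, had 2894 and 7021 reads in NPCs and 5485 and 1301 in ES cells, the highest reads of all members. FOR114 and REV115, 0.256 kb apart, had 320 and 319 reads in NPCs and 470 and 122 in ES cells. FOR123 and REV122, 3.89 kb apart, had 28 and 9 against 174 and 38. The last of these pairs stood at 0.653 and 0.171 times predicted in NPCs and 3.71 and 2.02 in ES cells. All of these pairs joined fragments with consecutive numbers and failed the rule with the rebuilt expected value. FOR282 was an end of 2 members: with REV278, 27.8 kb away, it had 43 and 169 reads in NPCs and 737 and 95 in ES cells, and with REV141 it formed the high pair described above. FOR354 and REV281, 193 kb apart, had 0 and 6 reads in NPCs and 65 and 13 in ES cells, with ES ratios of 30.9 and 9.26.

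Other Olig1-Olig2 members lay farther apart. FOR175 and REV228, 168 kb apart, had 26 and 28 reads in NPCs and 100 and 74 in ES cells. FOR145 and REV286 (415 kb) had 3 and 3 reads in NPCs and 47 and 18 in ES cells, and FOR249 and REV082 (502 kb) 5 and 1 against 61 and 26. FOR236 and REV106 (397 kb) had 50 and 112 reads in NPCs and 198 and 75 in ES cells, just under the NPC limit at 0.781 and 0.970. The farthest pair, FOR280 and REV001 at 900.0 kb, had 0 and 0 reads in NPCs and 12 and 14 in ES cells, at least 8.89-fold lower in NPCs. FOR173 and REV286 (343 kb) was likewise at 0 and 0 against 10 and 10 reads, at least 6.74-fold lower.

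A handful of members were not depleted in NPC reads as such. After depth scaling with TMM factors, the mean of the NPC libraries was lower than that of the ES libraries in 106 members, and both NPC libraries were below both ES libraries in 96, where the rule had used the same contrast; among readable pairs 42.6% did so. In the other 5 members the prediction, not scaled for depth, was higher in both NPC libraries than in both ES libraries. That trait was not particular to them. It was shared by many members with fewer scaled NPC reads, such as Klf4 FOR226 and REV131 (76.3 and 241 reads predicted in NPCs, 52.0 and 28.8 in ES cells). Olig1-Olig2 FOR121 and REV039, 260 kb apart, had 78 and 297 reads in NPCs and 16 and 10 in ES cells, against predictions of 124 and 509 reads in NPCs and 4.95 and 1.43 in ES cells. Its log2 fold change of NPC over ES was 2.61 ± 0.67 (SE; edgeR adjusted p = 0.0540). The other 4 were Sox2 FOR161 and REV156, Sox2 FOR155 and REV168, Olig1-Olig2 FOR215 and REV188, and Olig1-Olig2 FOR092 and REV235. Sox2 FOR161 and REV156, 12.9 kb apart, had 64 and 485 reads in NPCs and 63 and 16 in ES cells, with predictions of 135 and 1264 reads in NPCs and 15.4 and 5.60 in ES cells. In these 5 pairs the mean of scaled reads was higher in NPCs, while reads in both NPC libraries lay under their own prediction, as the rule required. What set the predictions of these pairs was not tested.

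In the Sox2 region 5 of 16 members lay between 446 and 538 kb. FOR179, at 538 kb, formed 2 of them. With REV158, 82.6 kb away, it had 8 and 3 reads in NPCs and 116 and 96 in ES cells, and with REV168, 46.5 kb away, 50 and 43 reads in NPCs and 196 and 127 in ES cells. REV168 also paired with FOR155 (46.3 kb), where ratios were 0.983 and 0.819 in NPCs and 2.77 and 2.77 in ES cells. Besides FOR161 and REV156, the fifth pair was FOR167 and REV162 (23.6 kb), with 6 and 8 reads in NPCs and 36 and 25 in ES cells. The other 116 pairs of this stretch had median ratios of 1.33 and 1.34 in NPCs and 2.02 and 2.19 in ES cells. In 64 of these 116 pairs both NPC ratios lay under both ES ratios, against 20.6% over all pairs of the table. Those were not matched on region or distance. This stretch, too, was singled out after its values were seen.

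Elsewhere in the Sox2 region members were spread over short and long distances. FOR249 and REV250, 1.28 kb apart, had 38 and 37 reads in NPCs and 154 and 51 in ES cells. FOR266 and REV265, 2.05 kb apart, had 26 and 17 against 84 and 35. Farther apart, FOR286 and REV229 (149 kb) had 1 and 50 reads in NPCs and 104 and 66 in ES cells, a pair in which the NPC libraries differed widely. FOR060 and REV275 (593 kb) had 2 and 0 reads in NPCs and 38 and 40 in ES cells. The farthest pair, FOR050 and REV331 at 793 kb, had 9 and 1 reads in NPCs and 25 and 28 in ES cells. FOR206 took part in 2 members that point in opposite directions along the region, with REV254 (125 kb; 34 and 55 reads in NPCs, 56 and 41 in ES cells) and with REV001 (631 kb; 47 and 117 against 45 and 44).

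**Figure D4:**
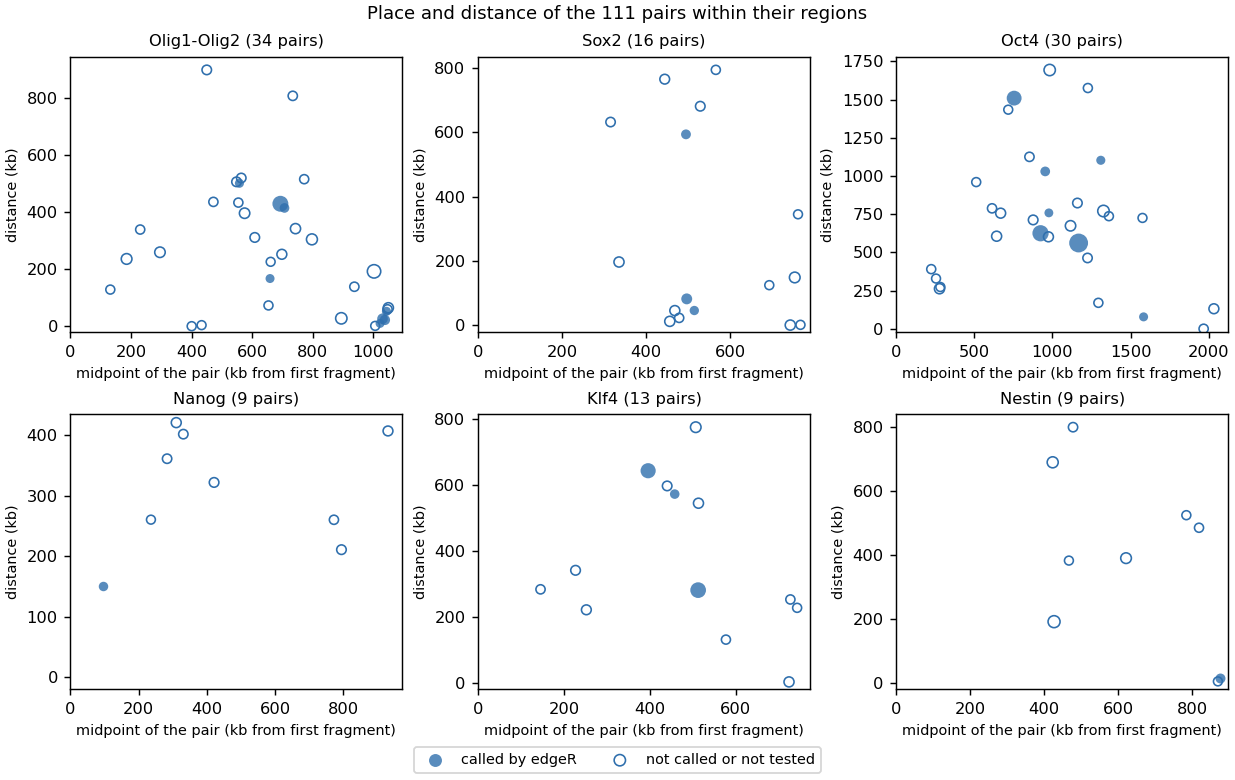
The 111 pairs by region, with the midpoint of the pair in kb from the first assayed fragment (horizontal axis) and the distance between its fragments in kb (vertical axis); circle area grows with the log2 of the lower ES ratio, filled circles have an edgeR adjusted p under 0.05 and open ones do not or were not tested. The rule used the contrast that edgeR tested, so a filled circle is no support for its pair. Short-range members gather near 1017 to 1082 kb in Olig1-Olig2 and at 446 to 538 kb in Sox2, while Oct4 members reach 1694 kb.

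The Oct4 region, the widest with 2099 kb, held the longest members, with a median of 719 kb and 7 members over 1000 kb. FOR441 and REV033, 1694 kb apart, had 6 and 9 reads in NPCs and 21 and 16 in ES cells, with ratios of 0.978 and 0.713 in NPCs and 4.83 and 4.30 in ES cells. FOR447 and REV165, 1103 kb apart, had 5 and 30 reads in NPCs and 104 and 77 in ES cells, and FOR351 and REV096, 1030.2 kb apart, 5 and 1 against 79 and 22. The reads of all 3 pairs were fewer in each NPC library than in each ES library after scaling, which also held for 42.6% of readable pairs. FOR406 and REV201 (771 kb) had 20 and 5 reads in NPCs and 26 and 70 in ES cells, and its ES ratios were 4.53 and 13.6. FOR323 and REV129 (759 kb) had 1 and 0 reads in NPCs and 39 and 18 in ES cells. FOR346 and REV171 (674 kb) had 0 and 0 reads against 10 and 11, at least 7.14-fold lower in NPCs.

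Shorter Oct4 members were few. FOR474 and REV473, 0.654 kb apart, had 296 and 251 reads in NPCs and 1124 and 355 in ES cells. REV473 also met FOR513, 132 kb away, with 0 and 9 reads in NPCs and 33 and 34 in ES cells. FOR387 and REV367 (78.7 kb) had 1 and 6 against 54 and 23. Near the low end of the region REV093, at 420 kb, paired with FOR036, FOR021 and FOR008 over 274 to 391 kb, and FOR036 also paired with REV084 (263 kb). With FOR036, REV093 had 2 and 4 reads in NPCs and 19 and 11 in ES cells, and with FOR021 39 and 125 against 97 and 58. FOR221, at 992 kb, was an end of 3 members, with REV347 (464 kb; 0 and 13 reads in NPCs, 32 and 11 in ES cells), REV412 (737 kb; 1 and 63 against 27 and 16) and REV010 (960.4 kb; 11 and 1 against 19 and 12). In each of these 3 pairs the NPC libraries differed from each other more, as a ratio of reads, than the ES libraries did.

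All 9 members of the Nanog region spanned 151 to 421 kb, so that neither short-range pairs nor pairs beyond that were among them. FOR010 and REV063, 151 kb apart, had 17 and 19 reads in NPCs and 108 and 67 in ES cells. FOR167 and REV089, 322 kb apart, had 3 and 58 reads in NPCs and 138 and 91 in ES cells. FOR037 and REV138 (361 kb) had 5 and 0 against 33 and 48, and FOR272 and REV197 (211 kb) 13 and 50 against 66 and 29. Single NPC reads were found in 2 of the other Nanog members. FOR339 and REV206 (407 kb) had 1 and 0 reads in NPCs and 16 and 21 in ES cells, a scaled ES to NPC ratio of 79.4 with an exact 95% interval of 13.4 to 3221. FOR034 and REV152 (421 kb) had 1 and 0 against 15 and 11, where the same ratio was 55.8 (interval 9.17 to 2288).

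Besides its high contacts, the Klf4 region held members of fewer reads. FOR037 and REV326, the farthest at 774 kb, had 1 and 0 reads in NPCs and 14 and 10 in ES cells, a scaled ES to NPC ratio of 51.5 (exact 95% interval 8.40 to 2119). FOR060 and REV268 (572 kb) had 1 and 1 reads in NPCs and 30 and 23 in ES cells. FOR259 and REV258, 2.52 kb apart, had 24 and 17 reads in NPCs and 115 and 43 in ES cells. The NPC libraries were far apart in FOR019 and REV138 (341 kb), with 3 and 126 reads against 103 and 47 in ES cells. FOR171 and REV222 (131 kb) had more reads in NPC replicate 2 than in either ES library, with 71 and 265 in NPCs and 80 and 72 in ES cells, at ratios of 0.897 and 0.703 in NPCs and 2.12 and 2.96 in ES cells.

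Nestin members included 2 short-range pairs that share a fragment. FOR221, at 866 kb, met REV222 (4.84 kb) with 36 and 4 reads in NPCs and 97 and 36 in ES cells, and REV226 (14.5 kb) with 17 and 16 in NPCs and 133 and 53 in ES cells. FOR094 and REV145, 192 kb apart, had 0 and 32 reads in NPCs and 177 and 24 in ES cells. Its ES ratios were 21.3 and 5.403, and the lower of them was the highest of the region. FOR024, at 77.5 kb, was an end of 2 long-range members. With REV197 (690.4 kb) it had 1 and 0 reads in NPCs and 12 and 16 in ES cells, and with REV224 (800.3 kb) 0 and 0 against 10 and 10, at least 6.74-fold lower in NPCs. FOR144 and REV263 (525 kb) also had 0 and 0 reads in NPCs, against 14 and 15 in ES cells, at least 9.83-fold lower. FOR206 and REV124 (390.5 kb) had 6 and 0 against 11 and 15.

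Members were spread over many fragments. Their 222 ends fell on 194 of 1464 fragments, of which 171 were used once, 20 by 2 members, 2 by 3 members and 1, Olig1-Olig2 REV327, by 5. The 10 most used fragments held 25 ends, or 11.3%. REV327 had 32 readable pairs, so that 15.6% of them were members. Oct4 FOR221 had 3 of 56 and Oct4 REV093 3 of 57. Olig1-Olig2 REV017 (2 of 15), Nestin FOR024 (2 of 22), Oct4 REV473 (2 of 26), Nestin FOR221 (2 of 27), Olig1-Olig2 FOR331 (2 of 28), Oct4 FOR036 (2 of 30) and Olig1-Olig2 FOR114 (2 of 33) made up the rest of the 10. In all, 44 members shared a fragment with another member.

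The fragments of members were not fragments with low NPC ratios throughout. Over their pairs outside the set, the 194 fragments had a median NPC minus ES difference of −0.10 in log2 reads over predicted, and 66.5% were lower in NPCs. The other 1222 fragments of the 6 regions had −0.11, with 72.3% lower in NPCs. REV327 itself had median ratios over its other 123 pairs of 0.973 and 0.677 in NPCs and 0.748 and 0.918 in ES cells. Single fragments went further: Nestin FOR024 stood at 0.630 and 0.273 in NPCs and 0.821 and 0.908 in ES cells over 100 other pairs. A drop of more than 1 on the log2 scale was found for 7 of the 194 fragments (3.61%) and 24 of the 1222 (1.96%).

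Members seldom lay beside each other in the contact map. A second member within 2 assayed fragments at both ends was found for 9 of 111 members, or 8.11% (exact 95% interval 3.77 to 14.8%). Among readable pairs of the same regions and distance classes, 5.17% had a member that near. The 9 were the 5 pairs of REV327, the Nestin pairs FOR221 with REV222 and REV226, and the Oct4 pairs FOR036 with REV084 and REV093. This share depended on the expected value, since 26.3% of the 118 pairs from the rebuilt expected value had such a neighbour.

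Counts that the rule did not use came from the diagonal neighbours of all members, the 1633 pairs outside the set that lay 1 or 2 assayed fragments away at both ends and shared neither fragment. Their median reads over predicted was 0.965 and 0.958 in NPCs and 1.16 and 1.18 in ES cells. Pairs matched on region and distance class had 0.884 and 0.856 in NPCs and 0.952 and 0.9498 in ES cells. Neighbours were thus above their matched pairs in all 4 libraries, and by more in ES cells. The NPC minus ES difference was −0.28 on the log2 scale in the neighbours and −0.13 in the matched pairs. In the neighbours both NPC libraries lay under both ES libraries, and the same order held in the matched pairs and over all pairs. The two-sided exact permutation test on the neighbours gave p = 0.333, the smallest that 2 against 2 libraries allow. It does not set neighbours against matched pairs, and the gap between those differences was not tested. Of the 1633 neighbours, 987 or 60.4% were lower in NPCs, against 55.2% of matched pairs.

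The regions differed in what surrounded their members. In the Sox2 region the neighbours stood at 0.921 and 1.07 in NPCs and 1.17 and 1.29 in ES cells, an NPC minus ES difference of −0.31, while matched pairs had 0.09. In the Nanog region the difference was −0.49 in the neighbours and −0.16 in matched pairs, with neighbour medians of 1.00 and 1.02 in NPCs and 1.35 and 1.504 in ES cells. Olig1-Olig2 gave −0.23 and −0.04. In Oct4 (−0.47 and −0.43), Klf4 (−0.11 and −0.12) and Nestin (−0.20 and −0.27) the neighbours and the matched pairs were close. These differences between regions were not tested. Members at 100 kb or more had neighbours with a difference of −0.35, and members under 100 kb −0.10. No matched pairs were set beside these distance groups, so the values do not separate neighbours from other pairs of such distances.

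**Figure D5:**
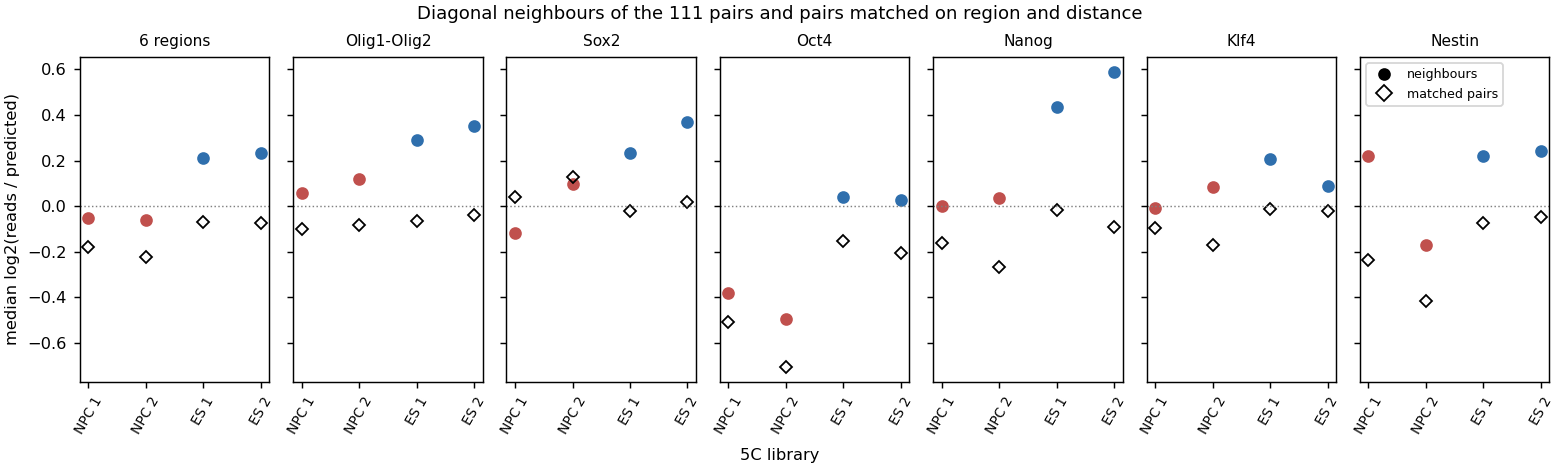
Median log2 reads over predicted in each library for the diagonal neighbours of members (filled circles, red for NPC and blue for ES libraries) and for pairs matched on region and distance class (open diamonds), over all 6 regions and by region. Over all regions the neighbours stand at −0.05 and −0.06 in NPCs and 0.21 and 0.23 in ES cells; in Oct4, Klf4 and Nestin the gap between the cell types is close to that of the matched pairs.

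The quasi-likelihood test of edgeR on reads, fitted on 46967 pairs with a mean of at least 10 reads, covered 88 of the 111 members; the rest had too few reads over the 4 libraries. It called 23 members lower in NPCs at an adjusted p under 0.05 and 0 higher, while 56 had an unadjusted p under 0.05 with lower NPC reads. Over all tested pairs, 2.33% were called lower in NPCs. Since the rule used this contrast, the members' share is no result. For the same reason the calls and p-values of single members below are no support for those pairs. DESeq2 called 41 lower and 1 higher (6.23% of all tested pairs lower). The median log2 fold change (NPC over ES) was −2.61 over the 88 members and 0.12 over all tested pairs. Called members ranged from −2.68 ± 0.63 (SE) for Olig1-Olig2 FOR175 and REV228 (edgeR adjusted p = 0.0449) to −9.63 ± 1.34 for Klf4 FOR254 and REV025 (edgeR adjusted p = 0.0246). The latter is a fitted value against 0 reads, and its SE is no measured spread. Oct4 had 7 of 23 tested members called, Olig1-Olig2 8 of 28, Sox2 3 of 14, Klf4 3 of 12, Nanog 1 of 6 and Nestin 1 of 5. The share over all tested pairs was not taken by region, so these counts do not compare the regions. Oct4 FOR344 and REV196 changed by −8.15 ± 0.67 (edgeR adjusted p = 0.0225), Klf4 FOR226 and REV131 by −5.02 ± 0.68 (0.0225), Sox2 FOR179 and REV158 by −5.15 ± 0.87 (0.0270) and Olig1-Olig2 FOR331 and REV327 by −5.13 ± 0.83 (0.0254). The count moved with the ES libraries: it was 4 when ES replicate 1 was left out (0.0385% of all tested pairs called lower) and 4 in the absence of ES replicate 2 (0.0357%). Leaving out NPC replicate 1 gave 71 (24.5%) and leaving out NPC replicate 2 gave 41 (5.19%), where the single library of a cell type is assumed to vary like the others. Other fits called 36 members with a replicate block (3.54% of all tested pairs), 29 with a crossed block (3.42%), 37 with limma (5.19%) and, out of all 111, 50 without a read filter (2.96%).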

How the data were processed

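The authors deposited 1 5C table with raw, whole-number read counts for each primer pair in each library, and a predicted signal for each of those counts. The deposited ratio equals raw reads over that signal, with 0 reads entered as 0.25, except in 5 values at a tolerance of 0.001. The sources used here do not give the model of the prediction. Bowtie was the tool named, per the submitters' processing notes. Another 12 per-sample columns were not used, nor were the NPC CTCF and Smc1 peak lists, because the table has no chromosome coordinates to place them on.

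Members were found with raw reads over predicted signal. The members, lists and rules were chosen with earlier results of these data known. Named pairs were the 3 members per region with the highest lower ES ratio and the farthest one, and the 10 most used fragments; other pairs were named after their values were seen. Positions were rebuilt from distances (largest misfit 0.556 bp). Matched pairs for reads, predictions and near members were the 35441 readable pairs outside the set. For the diagonal neighbours they were the 85023 pairs that were neither members nor neighbours, with no read limit. Matched pairs were weighted to the members' makeup over 10 distance classes per region, and no pairs were drawn at random. Counts from distance use 10 classes of equal pair number over all readable pairs. Reads were tested with edgeR 4.0.16 (quasi-likelihood, TMM factors) in R 4.3.3. The fit took pairs with a mean of at least 10 reads and cell type as the term, with Benjamini-Hochberg over all tested pairs. It was also run on counts simulated from its own dispersion, which cannot show whether that dispersion suits these libraries. Each SE is the absolute log2 fold change divided by the square root of the quasi-likelihood F, and was not estimated separately. DESeq2 1.42.0 and limma 3.58.1 were alternatives. Folds against 0 reads use 3 reads per library. Intervals and floors reflect counting error alone, because reads copied in the PCR do not count separate molecules. Other analysis used Python 3.11.15.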

Additional observations from a re-analysis of the deposited data

How the results depend on the processing

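The size of the set followed its limits. It held 535 pairs at an ES ratio of at least 1.5, 23 at 3, 59 with NPC ratios under 0.75, 267 under 1.5, 201 with at least 5 ES reads, 60 with at least 20, and 69 where at least 10 reads were predicted in both NPC libraries, a limit added after the data had been seen. Leaving out 1 library, which loosens the rule, gave 241 to 639. The median distance was 433 kb with at least 5 ES reads (219.5 kb for the readable pairs of that setting), 219 kb with at least 20 (135 kb) and 175 kb with the rebuilt expected value (178 kb), and 320.1 to 414 kb without a library. The share of ends on the 10 most used fragments was 4.58% at an ES ratio of 1.5, 23.9% at 3, 17.8% with NPC ratios under 0.75, 16.7% with at least 20 reads, and 3.68 to 6.85% without a library. Members with a near second member made up 29.7% at an ES ratio of 1.5, 0% at 3, 25.1% with NPC ratios under 1.5, 14.9% with at least 5 reads, 26.3% with the rebuilt expected value and 19.5 to 23.0% without a library. The excess of Olig1-Olig2 was 1.04 to 1.17 times without a library. The neighbour difference kept its sign in all 16 alternatives, at −0.31 to −0.18 without a library. Matched pairs had the same sign (−0.13) under the main rule. No matched value is given for the alternatives, so the kept sign does not bear on the gap between neighbours and matched pairs.

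edgeR called 50 members lower in NPCs without a read filter, 36 with a replicate block, and 4 to 71 without a library; DESeq2 called 41 and limma 37. Same-numbered libraries deviated from their group means with r = −0.14 over 46967 pairs, so the numbers were not taken to pair the libraries. A block with crossed numbers, added after the data had been seen, called 29 (3.42% of all tested pairs). The share of all tested pairs called lower moved too, from 2.33% in the main fit to 2.96% without a read filter. It was 3.54% with a replicate block, 6.23% with DESeq2 and 5.19% with limma. That share also moved when a library was left out, as given in the Results. The changes in member counts were therefore not particular to the members. The cause of these changes was not tested.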
